A study of Mus musculus with 12 samples.

Results

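Fatty acid elongases and desaturases set the length and the number of double bonds of the acyl chains that cells build. The genes described here are 5 elongases (Elovl1, Elovl3, Elovl4, Elovl5 and Elovl7), 3 front-end or sphingolipid desaturases (Fads1, Fads2 and Fads3) and 1 stearoyl-CoA desaturase (Scd2). They were picked by name for the high Elovl3 and Fads2 in cultured adipocytes against fat tissue, so every difference between a culture and tissue is given for them as a description, with no test. All 9 were measured, among 19938 genes, each by a single probe set. Transcripts were measured on Affymetrix arrays in 12 mouse RNA samples, 3 biological replicates in each of 4 groups. Cultured adipocytes came from 3 sources, which were the clonal and immortal fibroblast line 3T3-L1, primary mouse embryonic fibroblasts (PMEF), and embryonic stem (ES) cells of the mouse. The last group was eWAT, the usual name for epididymal white fat, taken from healthy wild-type mice. No genetic change is given for any group. Strain, age, differentiation agents and days in culture were not used here, because the labels do not state them. All values are log2 intensities as deposited, and a difference of 1 is a 2-fold difference.

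Elongases sit in the endoplasmic reticulum and catalyse the condensation step that limits each round of chain growth, after which a reductase, a dehydratase and another reductase complete the cycle. Desaturases put a double bond into the chain and take their electrons from cytochrome b5 and its reductases. ELOVL1 and ELOVL3 act on saturated and monounsaturated chains, ELOVL5 acts on polyunsaturated ones, ELOVL4 makes the extremely long chains of retina, skin and brain, and FADS2 and FADS1 carry out consecutive steps toward arachidonic acid and related products. In mice, Elovl3 is best known from skin glands and from brown fat, where cold raises it.

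The comparison the series was made for is that of adipocytes made in culture with fat tissue. Arrays of a group correlated at 0.992 or more across genes, and arrays of different groups at 0.899 to 0.965. Averaged over 9 measured adipocyte markers such as Adipoq and Plin1, the level was 10.26 to 10.30 on the 3T3-L1 arrays, 10.74 to 10.83 for PMEF, 11.29 to 11.31 for ES and 11.76 to 11.93 in eWAT. The 8 endothelial markers averaged 9.19 to 9.41 in eWAT and 5.08 to 5.41 in the cultures. For the 8 macrophage markers the means were 9.02 to 10.09 against 5.28 to 6.24. Of these 8, 7 were called lower in 3T3-L1 than in eWAT, as were 22.5% of all genes. Cd68 was called higher there, at 10.30 to 10.58 against 8.89 to 9.91. Lyz2 read 7.82 to 8.41 in PMEF, against 11.12 to 11.83 in eWAT. In such bulk RNA, fewer cells of a type and less RNA per cell cannot be told apart, and the part of other cell types in the differences from eWAT was not tested. The median over genes was 6.11 to 6.12 on the 3T3-L1 arrays and 6.31 to 6.35 on all others, so the scale matters where 3T3-L1 enters. Centring arrays on their medians moved the median difference by -0.22 for PMEF minus 3T3-L1, -0.20 for ES minus 3T3-L1 and 0.21 for 3T3-L1 minus eWAT. Centring on reference genes moved these by 0.13, 0.16 and -0.27, and moved PMEF minus eWAT by -0.14 and ES minus eWAT by -0.10. The share of called genes that were higher was 44.6% for PMEF against 3T3-L1 as deposited, 23.6% with median centring and 61.7% with reference centring. For ES against 3T3-L1 the shares were 47.1%, 21.7% and 69.6%, and for 3T3-L1 against eWAT 57.8%, 77.1% and 27.9%. Reference centring moved this share from 53.4% to 34.1% for PMEF against eWAT and from 58.0% to 43.8% for ES against eWAT.

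**Figure D1:**
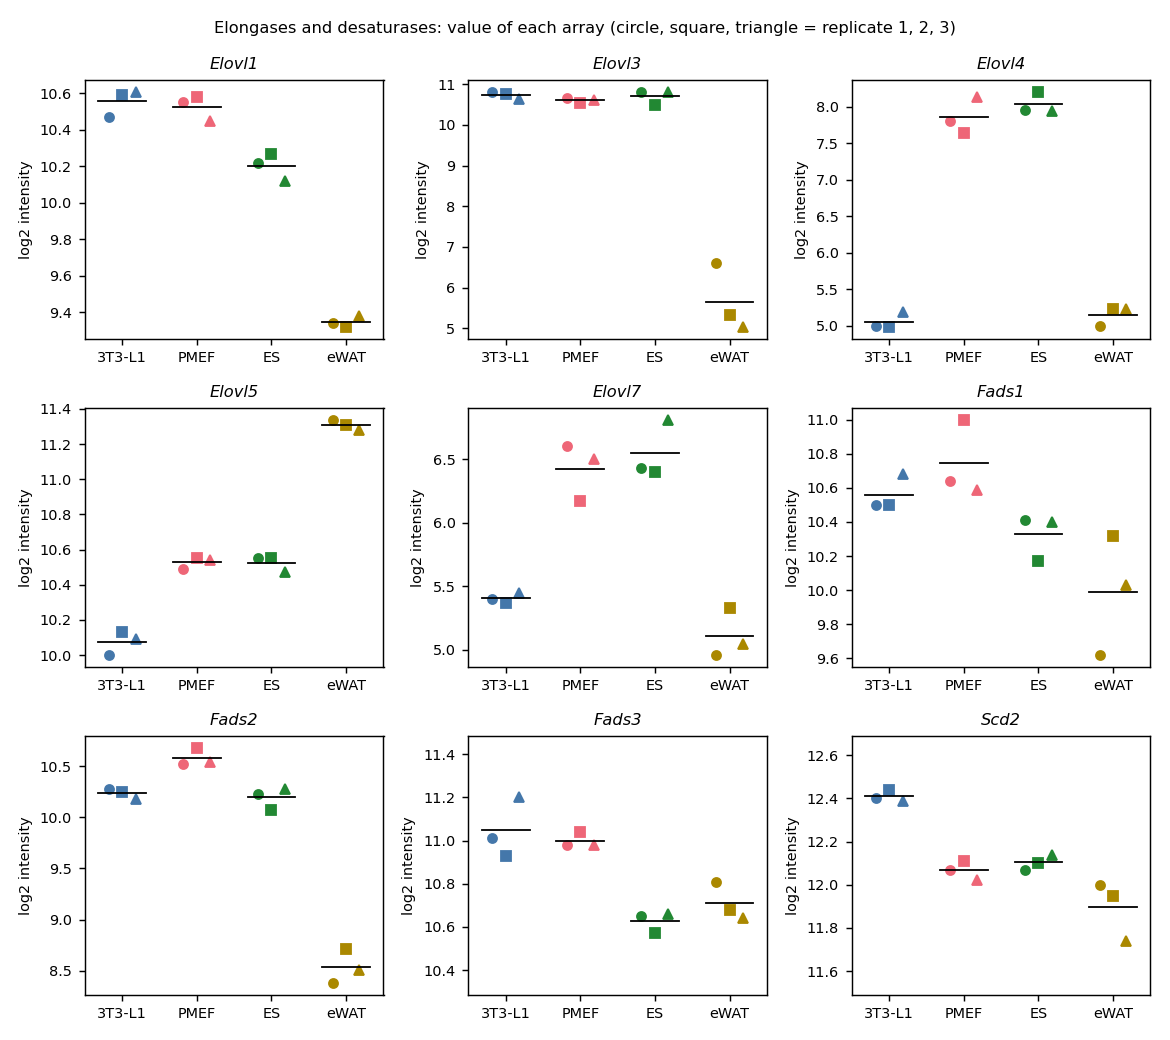
Log2 intensity (vertical axes, each with its own range) of the 9 elongase and desaturase genes on the 12 arrays. Symbols are single arrays in 4 groups and lines are group means. Elovl3 lies between 10.48 and 10.82 on all culture arrays and between 5.03 and 6.60 in eWAT, whereas Elovl4 and Elovl7 are high in PMEF and ES alone.

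Elovl3 had the widest gap between cultures and tissue among the 9 genes. Elovl3 stood at 10.82, 10.76 and 10.63 in 3T3-L1, at 10.66, 10.53 and 10.61 in PMEF, at 10.82, 10.48 and 10.82 in ES, and at 6.60, 5.32 and 5.03 in eWAT. Every culture array lay above every eWAT array, and the ranges of the 3 cultures overlapped. The difference from eWAT was 5.09 for 3T3-L1, 4.95 for PMEF and 5.06 for ES, each with a standard error of 0.28, which are ratios of 34.0, 31.0 and 33.3. These ratios are imprecise because eWAT arrays 2 and 3 lie in the dim part of the scale and no detection calls were used. Between cultures, Elovl3 differed by -0.13 for PMEF minus 3T3-L1 (95% interval -0.75 to 0.48, adjusted p = 0.741), by -0.03 for ES minus 3T3-L1 (-0.64 to 0.59, adjusted p = 0.954) and by 0.10 for ES minus PMEF (-0.51 to 0.72, adjusted p = 0.802). Those intervals carry the eWAT spread, since the 4 groups share 1 estimate of the variance. With only the arrays of the pair compared, the standard errors were 0.08, 0.11 and 0.10 and the adjusted p 0.208, 0.860 and 0.455. The order of the means was 3T3-L1, ES, PMEF and then eWAT, and no neighbours among the first 3 differed beyond their spread.

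The eWAT spread of Elovl3, an SD of 0.83 (n = 3), came mostly from array 1. Leaving that array out gave differences from eWAT of 5.56, 5.43 and 5.53 for 3T3-L1, PMEF and ES. On the same array Ucp1, the uncoupling protein of brown fat, read 10.05, against 8.05 and 7.45 on eWAT arrays 2 and 3. Cidea, a lipid droplet protein abundant in brown fat, read 10.90, 10.32 and 10.42 on the 3 eWAT arrays, and Otop1, a proton channel of brown fat, 9.58, 8.66 and 8.88. Array 1 was the highest eWAT array for 8 of the 11 measured brown and beige markers, against 39.2% of all genes. Their mean was 8.78, 8.26 and 8.18 on arrays 1 to 3. Array 1 was also the highest for 6 of 9 adipocyte markers, with means of 11.93, 11.78 and 11.76. The same held for 6 of 8 endothelial markers, with means of 9.41, 9.25 and 9.19. Array 1 was the lowest for 8 of 8 macrophage markers, against 33.5% of all genes, with means of 9.02, 9.76 and 10.09. It was also the lowest for 6 of 7 fibroblast and preadipocyte markers, with means of 9.51, 9.72 and 9.77. The part of these cells in the Elovl3 value of that array was not tested. Of the 9 elongase and desaturase genes, 4 were highest on eWAT array 1 (Elovl3, Elovl5, Fads3 and Scd2) and 4 were lowest there (Elovl4, Elovl7, Fads1 and Fads2).

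**Figure D2:**
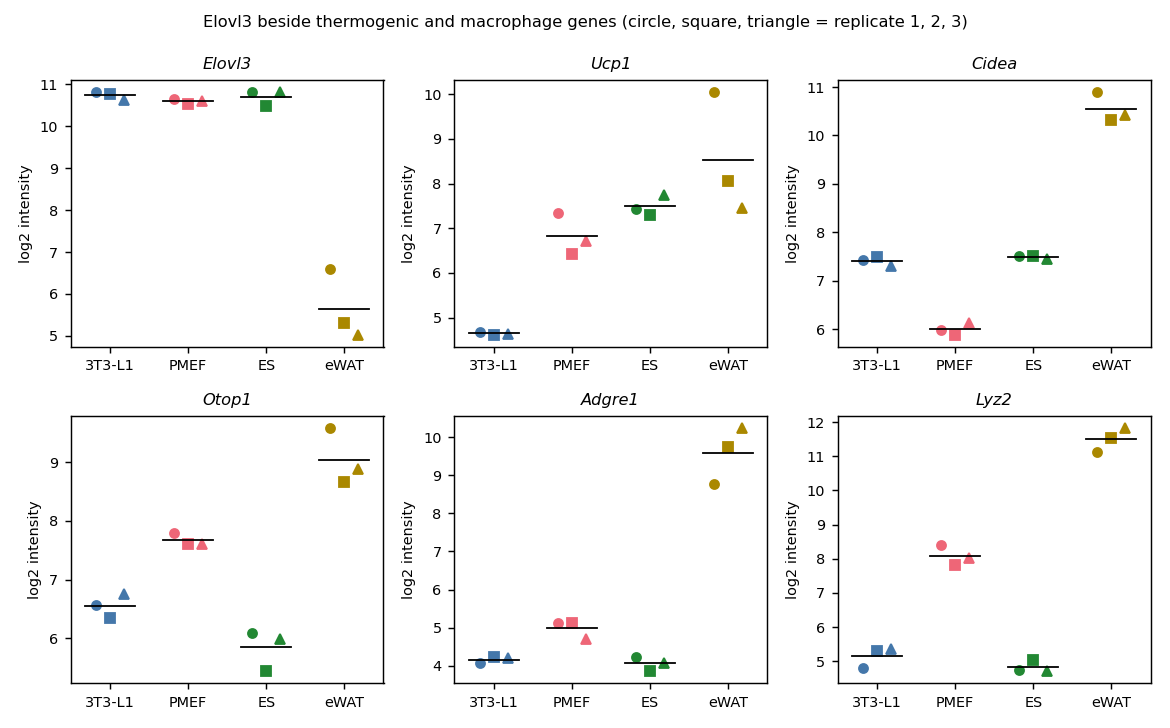
Log2 intensity of Elovl3, of the brown fat genes Ucp1, Cidea and Otop1, and of the macrophage genes Adgre1 and Lyz2 on the 12 arrays, with group means as lines. On eWAT array 1 (circle) Elovl3, at 6.60, and Ucp1, at 10.05, are the highest of the eWAT arrays, and Adgre1, at 8.78, is the lowest.

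The brown and beige markers differed among themselves in the cultures, some above and some below tissue. The mean over the 11 measured was 7.29 to 7.37 in 3T3-L1, 7.30 to 7.41 in PMEF and 7.45 to 7.58 in ES, against 8.18 to 8.78 in eWAT, and 7, 7 and 6 of the 11 were called lower than eWAT in 3T3-L1, PMEF and ES (22.5%, 21.6% and 20.9% of all genes). The mitochondrial regulator Ppargc1a was above tissue in each culture, at group means of 10.37, 8.49 and 8.95 in 3T3-L1, PMEF and ES against 7.86 in eWAT. Cox7a1, a muscle and brown fat subunit of cytochrome c oxidase, had means of 9.86, 9.49 and 11.41 against 9.27, with PMEF overlapping eWAT. Zic1, a transcription factor of classical brown fat, had means of 6.42 in PMEF and 6.18 in ES against 4.79 in 3T3-L1 and 4.64 in eWAT. Cox8b, another oxidase subunit, was at 11.62 in 3T3-L1, 10.71 in PMEF, 9.02 in ES and 11.61 in eWAT, so that 3T3-L1 and tissue overlapped. The part of these markers in the Elovl3 values was not tested. In 3T3-L1, Ucp1 read 4.69, 4.62 and 4.63. Ucp1 was higher in PMEF than in 3T3-L1 by 2.18 ± 0.47 (SE, adjusted p = 0.00143) and in ES by 2.84 ± 0.47 (adjusted p = 0.000215). Skin gland and keratinocyte markers, the other setting where Elovl3 is known, averaged 5.35 to 5.90 on all 12 arrays over the 10 measured. Krt79, a keratin of sebaceous ducts, read 7.71, 7.79 and 7.45 in 3T3-L1, 5.29 to 5.64 in PMEF, 5.89 to 5.97 in ES and 5.71 to 6.16 in eWAT, and Awat2, a wax synthase, 5.33, 5.35 and 5.6 in 3T3-L1 and 4.52 to 4.66 in eWAT. Both were higher in 3T3-L1 than in eWAT, by 1.74 ± 0.13 (SE, adjusted p = 5.51e-08) and 0.83 ± 0.11 (adjusted p = 1.88e-05). They were the only 2 of the 10 called higher there, Trp63 was called lower, and 7, including Krt5, Krt14 and Krt17, were not called. Of all 19938 genes, 6146 were called higher and 4482 lower in this comparison. In the same list Mc5r, a melanocortin receptor of sebaceous glands, read 8.51, 8.47 and 8.83 in PMEF and 7.06, 8.12 and 7.97 in eWAT, and Awat1, a related wax synthase, read 4.27 to 5.15 over the 12 arrays.

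The genes whose pattern over the 12 arrays was closest to Elovl3 were Peg10, Capn6, Mreg, Sptlc3 and Ddah1. Likeness was the root mean square difference of log2 values after each gene was centred on its own mean, and it was 0.93, 1.01, 1.06, 1.12 and 1.12 for these 5. Peg10, an imprinted gene derived from a retrotransposon, differed from eWAT by 3.23, 2.75 and 4.28 in 3T3-L1, PMEF and ES, and Capn6, a calpain family member, by 4.16, 4.66 and 2.70. Sptlc3, a subunit of serine palmitoyltransferase, which starts sphingolipid synthesis, differed by 2.21, 2.96 and 3.33.

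Elovl1, the broadly expressed elongase whose products feed into sphingolipids, was also above tissue in each culture. Elovl1 read 10.47, 10.59 and 10.61 in 3T3-L1, 10.55, 10.58 and 10.45 in PMEF, 10.22, 10.27 and 10.12 in ES, and 9.34, 9.32 and 9.38 in eWAT. The eWAT arrays lay lowest without overlap, ES came next, and the 3T3-L1 and PMEF ranges overlapped. Differences from eWAT were 1.21, 1.18 and 0.85 for 3T3-L1, PMEF and ES (SE 0.07 each). Elovl1 fell in ES against 3T3-L1 by 0.35 ± 0.07 (SE, adjusted p = 0.000949) and in ES against PMEF by 0.32 ± 0.07 (adjusted p = 0.00194). With reference centring the first of these was -0.19 (adjusted p = 0.0534), no longer past the threshold. PMEF and 3T3-L1 differed by -0.03 (95% interval -0.18 to 0.12, adjusted p = 0.770), and under median centring by -0.25 (adjusted p = 0.00818).

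**Figure D3:**
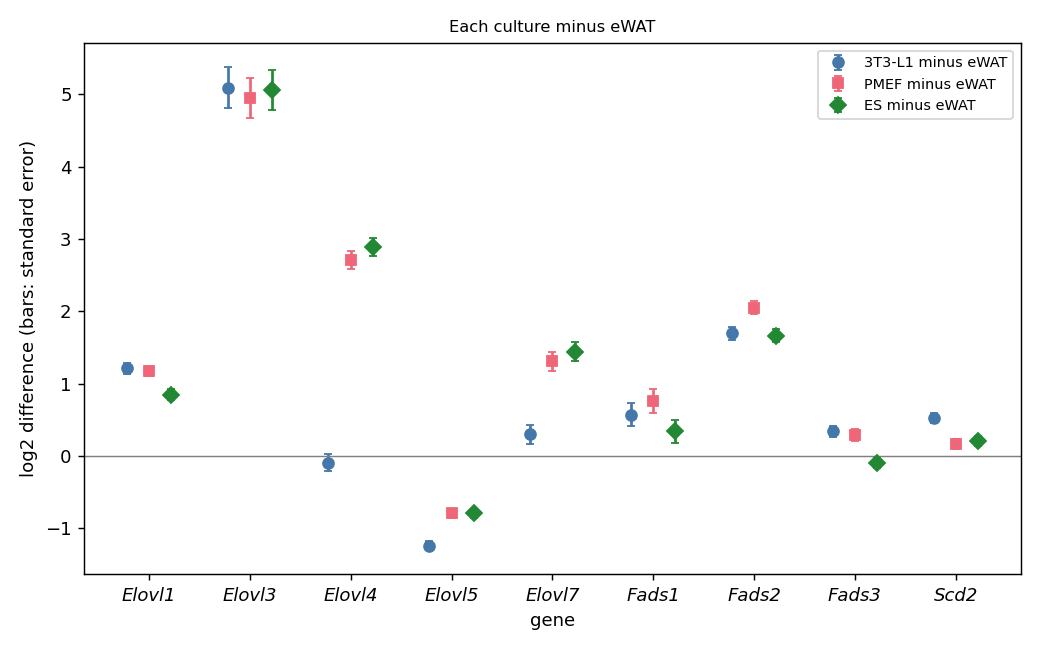
Difference in log2 intensity between each culture and eWAT (vertical axis) for the 9 genes (horizontal axis), with standard errors as bars and no test. Elovl3 stands near 5 in all 3 cultures, Fads2 between 1.66 and 2.05 and Elovl1 between 0.85 and 1.21, and Elovl5 lies below 0 throughout.

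Elovl4 and Elovl7 formed a second pattern, with the 3T3-L1 adipocytes at or close to the level of tissue. ELOVL7 elongates saturated and some polyunsaturated chains. Elovl4 read 4.99, 4.98 and 5.19 in 3T3-L1, 7.80, 7.64 and 8.13 in PMEF, 7.95, 8.21 and 7.94 in ES, and 4.99, 5.23 and 5.23 in eWAT. Elovl7 read 5.40, 5.37 and 5.45 in 3T3-L1, 6.60, 6.17 and 6.50 in PMEF, 6.43, 6.40 and 6.81 in ES, and 4.96, 5.33 and 5.05 in eWAT. For both genes each PMEF and ES array lay above each 3T3-L1 and eWAT array, a pattern met by 5.8% of all genes, and this held under quantile normalization and both centrings. The start sites of these genes are shown because the pair moved together. The lines give the RefSeq promoters (GRCm38.p6) from 250 bases before to 50 after the start, each on its gene's strand, Elovl4 from chr9:83806256-83806555 (minus strand) and Elovl7 from chr13:108214154-108214453 (plus strand). Capitals mark matches to the motifs searched.

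Elovl4: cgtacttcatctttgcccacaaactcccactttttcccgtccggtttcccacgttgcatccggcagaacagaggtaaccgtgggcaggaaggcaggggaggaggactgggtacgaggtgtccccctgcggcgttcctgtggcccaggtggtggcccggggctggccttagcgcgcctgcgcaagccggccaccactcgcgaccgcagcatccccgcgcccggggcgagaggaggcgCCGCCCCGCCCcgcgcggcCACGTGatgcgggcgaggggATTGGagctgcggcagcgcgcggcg

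Elovl7: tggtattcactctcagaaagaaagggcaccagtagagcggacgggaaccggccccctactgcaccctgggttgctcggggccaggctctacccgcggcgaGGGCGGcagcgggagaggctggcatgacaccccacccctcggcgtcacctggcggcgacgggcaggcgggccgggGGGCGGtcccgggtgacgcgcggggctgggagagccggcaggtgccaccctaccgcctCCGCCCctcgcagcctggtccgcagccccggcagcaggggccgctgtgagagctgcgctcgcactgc

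The motifs, searched on both strands, were the E-box CACGTG, the Sp1 box GGGCGG, the CCAAT box CCAAT, the sterol regulatory element TCACNCCAC, and the nuclear receptor repeats DR1 and DR4, which are AGGTCA repeated in the same direction with 1 or 4 bases between, N being any base. Among 32851 mouse promoters of the same length these were found in 7.15%, 35.7%, 37.4%, 1.24%, 0.0396% and 0.0152%. Elovl4 holds 1 E-box, 2 Sp1 boxes that overlap by 1 base and 1 CCAAT box, all within 30 bases of the start. Elovl7 holds 3 Sp1 boxes, at 150, 75 and 17 bases before the start. GC content was 71.0% for Elovl4 and 74.0% for Elovl7 against a median of 52.7%, and CpG counts were 35 and 30 against 7. Such matches describe the letters in the window and are no evidence of binding.

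Elovl4 rose in PMEF against 3T3-L1 by 2.80 ± 0.12 (SE, adjusted p = 4.17e-10), a ratio of 6.96, and in ES against 3T3-L1 by 2.98 ± 0.12 (adjusted p = 4.35e-10), a ratio of 7.89. Elovl7 rose by 1.02 ± 0.13 (adjusted p = 1.83e-05) and 1.14 ± 0.13 (adjusted p = 9.03e-06) in the same comparisons. ES and PMEF differed by 0.18 for Elovl4 (95% interval -0.09 to 0.45, adjusted p = 0.274) and by 0.13 for Elovl7 (-0.16 to 0.41, adjusted p = 0.491). Without PMEF array 3 the Elovl4 difference was 0.32 and passed the threshold (adjusted p = 0.0446). Against eWAT, Elovl4 differed by -0.09, 2.71 and 2.89 in 3T3-L1, PMEF and ES (SE 0.12), and Elovl7 by 0.30, 1.31 and 1.44 (SE 0.13). Both genes lie near the dim end of the scale in 3T3-L1 and eWAT, where ratios are imprecise. Across the 12 arrays the pair correlated at 0.95, a description that mostly reflects the 4 group means.

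Epithelial and mesothelial markers were set out in the same way. Their mean was 6.74 to 6.83 in PMEF and 6.73 to 6.77 in ES against 5.41 to 5.55 in 3T3-L1 and 5.26 to 5.45 in eWAT, and 6 of 7 rose in PMEF and 7 of 7 in ES against 3T3-L1, where 22.3% and 20.4% of all genes rose. With median centring 4 rose in PMEF. Krt19, a simple epithelial keratin, read 7.17, 7.20 and 7.06 in PMEF and 4.87, 5.01 and 4.92 in 3T3-L1. The defining epithelial marker Epcam was dim, at 4.17 to 4.36 in 3T3-L1, 4.29 to 4.60 in PMEF, 4.81 to 4.93 in ES and 4.0 to 4.43 in eWAT, and rose in ES by 0.60 ± 0.11 against 3T3-L1 (adjusted p = 0.000708) and by 0.40 ± 0.11 against PMEF (adjusted p = 0.0121). Their part in the Elovl4 and Elovl7 values was not tested. Photoreceptor markers, from a cell type known for Elovl4, averaged 4.55 to 4.77 on all arrays over the 5 measured. Neuron and glia markers averaged 5.77 to 6.09 in ES, 5.47 to 5.61 in PMEF, 5.17 to 5.20 in 3T3-L1 and 5.66 to 5.68 in eWAT. Of the 9 measured, 4 rose in PMEF and 7 rose and 1 fell in ES against 3T3-L1 (23.0% of all genes fell). Map2, a neuronal microtubule protein, read 5.03 to 5.30 in 3T3-L1, 6.41 to 6.61 in PMEF, 6.50 to 7.29 in ES and 5.35 to 5.37 in eWAT, so that its PMEF and ES arrays lay above the others, as for Elovl4. The glial filament gene Gfap read 6.68, 7.19 and 6.87 in ES, 4.84, 5.07 and 4.91 in PMEF and 5.08 to 5.10 in 3T3-L1. The part of these markers in the Elovl4 values was not tested.

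Elovl5, the elongase of polyunsaturated chains, ran opposite to Elovl3. Elovl5 read 10.00, 10.13 and 10.09 in 3T3-L1, 10.49, 10.55 and 10.54 in PMEF, 10.55, 10.55 and 10.47 in ES, and 11.34, 11.31 and 11.28 in eWAT. All 9 culture arrays lay below all eWAT arrays, as for 11.3% of genes, and the 3T3-L1 arrays were lowest. Differences from eWAT were -1.24, -0.79 and -0.79 for 3T3-L1, PMEF and ES (SE 0.06). Elovl5 rose against 3T3-L1 by 0.45 ± 0.06 in PMEF (adjusted p = 3.74e-05) and by 0.45 ± 0.06 in ES (adjusted p = 5.51e-05). ES minus PMEF was 0.00 with a 95% interval of -0.14 to 0.13 (adjusted p = 0.980). Elovl2, the other polyunsaturated elongase and best known from liver, was dim at 4.18 to 4.78 on all arrays. Within arrays, Elovl5 minus Elovl2 stood below its eWAT mean by 1.28, 0.95 and 1.18 in 3T3-L1, PMEF and ES.

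The 3 Fads genes are direct neighbours on chromosome 19 in the order Fads3, Fads2, Fads1, between Rab3il1 and Fen1. FADS3 acts on sphingoid bases of ceramides. The promoters of Fads2 and Fads3 are printed because both genes, with Fads1, fell in ES against PMEF. RefSeq (GRCm38.p6) places them at chr19:10101454-10101753 (minus strand) and chr19:10041298-10041597 (plus strand), and capitals again mark motif matches.

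Fads2: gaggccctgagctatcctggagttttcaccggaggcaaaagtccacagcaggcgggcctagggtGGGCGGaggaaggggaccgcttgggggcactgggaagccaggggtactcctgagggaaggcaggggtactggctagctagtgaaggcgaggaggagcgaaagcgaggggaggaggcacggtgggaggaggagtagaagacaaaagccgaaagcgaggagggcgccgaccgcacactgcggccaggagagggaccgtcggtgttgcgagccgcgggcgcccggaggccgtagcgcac

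Fads3: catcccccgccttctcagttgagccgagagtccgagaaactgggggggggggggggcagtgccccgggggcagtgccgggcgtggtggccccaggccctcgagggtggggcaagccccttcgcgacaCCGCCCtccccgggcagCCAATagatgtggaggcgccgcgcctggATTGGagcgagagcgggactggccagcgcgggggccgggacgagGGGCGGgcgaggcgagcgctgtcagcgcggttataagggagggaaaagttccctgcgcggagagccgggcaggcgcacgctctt

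Fads2 holds 1 Sp1 box, at 186 bases before the start, and Fads3 holds 2 Sp1 boxes and 2 CCAAT boxes. GC content was 67.0% and 73.0%, with 23 and 31 CpG. Of the 9 genes 6 had a promoter in this table, 7 promoters in all, and none of these held a match to the sterol element, DR1 or DR4 as spelled.

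Fads2, the desaturase of the entry step into polyunsaturated fatty acid synthesis, read 10.28, 10.25 and 10.18 in 3T3-L1, 10.52, 10.68 and 10.54 in PMEF, 10.23, 10.07 and 10.28 in ES, and 8.38, 8.71 and 8.51 in eWAT. Every culture array was above every eWAT array, PMEF stood above the other cultures, and 3T3-L1 and ES overlapped. Fads2 differed from eWAT by 1.70, 2.05 and 1.66 in 3T3-L1, PMEF and ES (SE 0.09), ratios of 3.26, 4.13 and 3.16. It rose in PMEF against 3T3-L1 by 0.34 ± 0.09 (adjusted p = 0.00622), which median centring reduced to 0.12 (adjusted p = 0.276), and fell in ES against PMEF by 0.39 ± 0.09 (adjusted p = 0.00352). ES minus 3T3-L1 was -0.04 (95% interval -0.24 to 0.15, adjusted p = 0.748), and under median centring -0.25 (adjusted p = 0.0346). The closest patterns over the 12 arrays were those of Cdkn2b, a cyclin-dependent kinase inhibitor, at a root mean square difference of 0.10, then Cdk1, Basp1 and Aaas at 0.16 and Pdk3 at 0.19.

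Fads1, which acts after Fads2 and an elongase in the same route, varied more between arrays. Fads1 read 10.50, 10.50 and 10.68 in 3T3-L1, 10.64, 11.00 and 10.59 in PMEF, 10.41, 10.17 and 10.40 in ES, and 9.62, 10.32 and 10.03 in eWAT. The eWAT range overlapped that of ES, and the PMEF and 3T3-L1 ranges overlapped each other. Differences from eWAT were 0.57, 0.76 and 0.34 (SE 0.16). Fads1 fell in ES against PMEF by 0.41 ± 0.16 (adjusted p = 0.0469), but missed the threshold under quantile normalization (adjusted p = 0.0636), both centrings (0.0568 and 0.0701), a trended and robust variance (0.0630) and without single arrays. Without PMEF array 2 the difference was -0.28 (adjusted p = 0.202), and without ES array 2 it was -0.34 (adjusted p = 0.160). Fads2 minus Fads1 within arrays stood above its eWAT mean by 1.13, 1.29 and 1.32 in 3T3-L1, PMEF and ES, so the culture to tissue gap was wider for Fads2 than for Fads1 in each.

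Fads3 read 11.01, 10.93 and 11.20 in 3T3-L1, 10.98, 11.04 and 10.98 in PMEF, 10.65, 10.57 and 10.66 in ES, and 10.81, 10.68 and 10.64 in eWAT. ES and eWAT overlapped at the low end, and 3T3-L1 and PMEF overlapped above them. Fads3 fell in ES by 0.42 ± 0.08 against 3T3-L1 (adjusted p = 0.000585) and by 0.38 ± 0.08 against PMEF (adjusted p = 0.00148). PMEF minus 3T3-L1 was -0.04 (95% interval -0.22 to 0.13, adjusted p = 0.686), which median centring turned into -0.26 (adjusted p = 0.0114). Differences from eWAT were 0.34, 0.29 and -0.09 (SE 0.08). Fibroblast and preadipocyte markers were lower in ES than in PMEF too, at means of 8.51 to 8.55 against 9.94 to 9.99 with 7 of 7 falling, where 19.0% of all genes fell. Their part in the Elovl1 and Fads values was not tested.

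Scd2, a stearoyl-CoA desaturase prominent in brain and in developing fat, read near 12 on every array and moved little. These values lie toward the top of the scale, where differences may be compressed. Scd2 read 12.40, 12.44 and 12.39 in 3T3-L1, 12.07, 12.11 and 12.02 in PMEF, 12.07, 12.10 and 12.14 in ES, and 12, 11.95 and 11.74 in eWAT. The 3T3-L1 arrays were highest without overlap, PMEF and ES overlapped, and eWAT lay just beneath them. Scd2 fell against 3T3-L1 by 0.34 ± 0.07 in PMEF (adjusted p = 0.00143) and by 0.31 ± 0.07 in ES (adjusted p = 0.00381). With reference centring the ES difference was -0.14 (adjusted p = 0.162). ES minus PMEF was 0.03 (95% interval -0.13 to 0.20, adjusted p = 0.745). Differences from eWAT were 0.52, 0.17 and 0.21 (SE 0.07), and without eWAT array 3 they were 0.44, 0.09 and 0.13. Closest in pattern were Scrn3 at a root mean square difference of 0.05, Ubtf and Mrpl37 at 0.06, and Zfp335 and Ulk1 at 0.07.

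The neighbours of Scd2 behaved differently. On chromosome 19 the genes run Scd3, Scd2, Scd4, Scd1. Scd3, a desaturase known from mouse sebaceous and Harderian glands, read 10.19, 10.23 and 10.33 in 3T3-L1, 6.57, 6.79 and 6.47 in PMEF, 8.45, 8.38 and 8.35 in ES, and 5.98, 6.20 and 5.61 in eWAT. No ranges overlapped, with 3T3-L1 highest. Scd3 fell against 3T3-L1 by 3.64 ± 0.13 in PMEF (adjusted p = 3.60e-11) and by 1.85 ± 0.13 in ES (adjusted p = 5.44e-08), and rose in ES against PMEF by 1.79 ± 0.13 (adjusted p = 1.04e-07). Scd1, the main desaturase of adult fat, was near the top of the scale at 12.87 to 13.24 on all arrays, where differences may be compressed. Within arrays Scd2 minus Scd1 was above its eWAT mean by 0.69, 0.51 and 0.35 in 3T3-L1, PMEF and ES. Scd4 was dim at 4.52 to 5.04. Scd genes are close in sequence, and cross-hybridization among their probe sets was not tested.

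**Figure D4:**
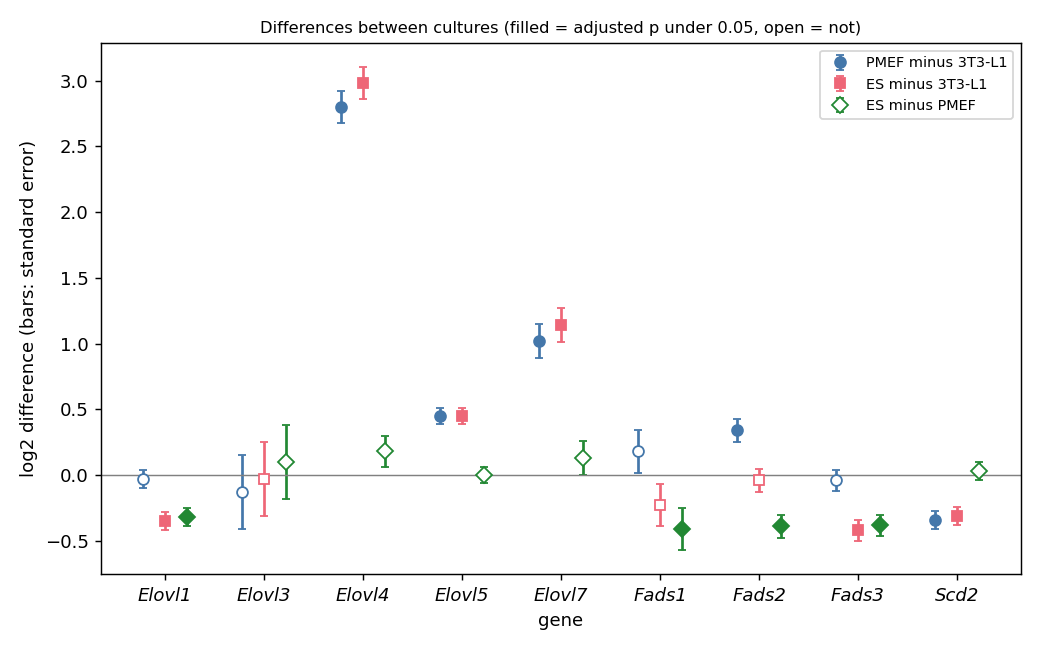
Difference in log2 intensity between cultures (vertical axis) for the 9 genes, with standard errors as bars. Filled symbols passed an adjusted p of 0.05, and Elovl4, at 2.80 and 2.98, and Elovl7, at 1.02 and 1.14, show the widest differences from 3T3-L1.

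Counted over the 9 genes, 5 passed the test in PMEF against 3T3-L1, where 50.1% of all genes did. The 4 genes Elovl4, Elovl5, Elovl7 and Fads2 rose in PMEF, as did 22.3% of all genes, and Scd2 fell, as did 27.8%. In ES against 3T3-L1 there were 6, against 43.4% of all genes, with Elovl4, Elovl5 and Elovl7 rising (20.4% of all genes) and Elovl1, Fads3 and Scd2 falling (23.0%). In ES against PMEF there were 4, against 42.6%. All were falls in ES (Elovl1, Fads1, Fads2 and Fads3), where 19.0% of all genes fell. With 9 genes, nothing is read from how these counts compare with the background shares. With median centring 3 rose and 3 fell in PMEF and 3 rose and 5 fell in ES against 3T3-L1, and with reference centring 1 fell in ES. Median differences were 0.18, -0.04 and 0.00 over the 9 genes and 0.01, -0.02 and -0.02 over all genes. The largest difference between 2 cultures was 0.13 for Elovl3 and 2.98 for Elovl4, and from 0.34 to 1.14 for the other 7.

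Against eWAT, 5 of the 9 genes (Elovl1, Elovl3, Elovl7, Fads2 and Scd2) had all 9 culture arrays above all tissue arrays, as had 12% of genes, a pattern that is close to what they were chosen for. Median centring left Scd2 out, where 14.4% of genes met the pattern. With reference centring only Elovl1, Elovl3 and Fads2 met it, as did 5.77% of genes. The median difference over the 9 genes was 0.52, 1.18 and 0.85 for 3T3-L1, PMEF and ES, and 0.05, 0.05 and 0.04 over all genes. The 3 comparisons share the same eWAT arrays.

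Other elongases and desaturases did not follow one direction. Among all genes 22.3% rose and 27.8% fell in PMEF against 3T3-L1, 20.4% rose and 23.0% fell in ES against 3T3-L1, and 23.6% rose and 19.0% fell in ES against PMEF. Of 8 measured, 2 rose and 3 fell in PMEF against 3T3-L1 and 2 rose and 3 fell in ES against 3T3-L1. In ES against PMEF 4 rose and 3 fell, and the 3 medians were 0.09, -0.02 and 0.19. Against 3T3-L1, median centring gave 1 rise and 3 falls in PMEF and 1 rise and 5 falls in ES. Reference centring gave 4 rises and 1 fall in PMEF and 4 rises and 3 falls in ES. Elovl6, which lengthens palmitate and is a lipogenic enzyme of fat, was the reverse of Elovl3 against tissue. Elovl6 read 9.30, 9.19 and 9.34 in 3T3-L1, 9.73, 9.80 and 9.74 in PMEF, 8.36, 8.33 and 8.19 in ES, and 11.74, 11.75 and 11.84 in eWAT. No ranges overlapped, and tissue was highest. Elovl6 rose in PMEF against 3T3-L1 by 0.48 ± 0.07 (adjusted p = 5.92e-05), and fell in ES by 0.98 ± 0.07 against 3T3-L1 (adjusted p = 1.00e-07) and by 1.46 ± 0.07 against PMEF (adjusted p = 3.85e-09). Within arrays, Elovl3 minus Elovl6 stood 7.59, 6.97 and 8.54 above its eWAT mean in 3T3-L1, PMEF and ES. Degs1, the desaturase that makes ceramide, fell in PMEF by 0.27 ± 0.08 (adjusted p = 0.0143) and in ES by 0.62 ± 0.08 (adjusted p = 3.54e-05) against 3T3-L1, the PMEF difference being -0.14 with reference centring (adjusted p = 0.199).

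**Figure D5:**
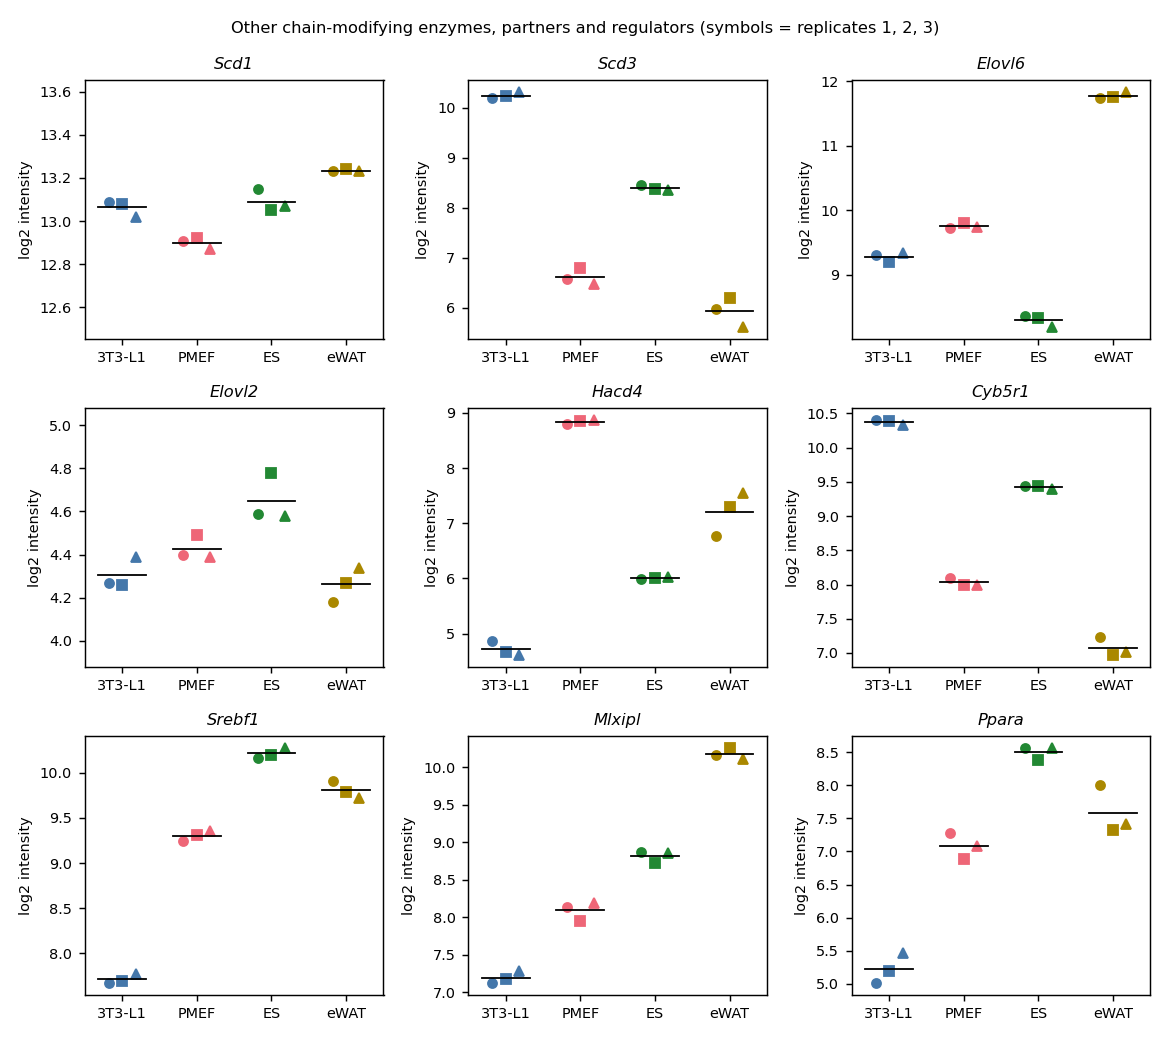
Log2 intensity of other elongases and desaturases (Scd1, Scd3, Elovl6, Elovl2), of the partners Hacd4 and Cyb5r1 and of the regulators Srebf1, Mlxipl and Ppara on the 12 arrays, with group means as lines. Scd3 and Cyb5r1 are highest in 3T3-L1, Hacd4 in PMEF, Ppara in ES and Elovl6 in eWAT.

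Partners of the elongation cycle showed large differences in the dehydratases. Of 7 measured, 2 rose and 3 fell in PMEF against 3T3-L1. In ES, 3 rose and 1 fell against 3T3-L1, and 3 rose and 1 fell against PMEF. The medians were -0.21, 0.28 and 0.30. Of all genes, 22.3% rose and 27.8% fell in the first comparison, 20.4% and 23.0% in the second and 23.6% and 19.0% in the third. Against 3T3-L1, median centring gave 1 rise and 4 falls in PMEF and 3 rises and 3 falls in ES. Reference centring gave 2 rises and 2 falls in PMEF and 4 rises and 1 fall in ES. Hacd4, a dehydratase family member, read 4.87, 4.66 and 4.61 in 3T3-L1, 8.80, 8.85 and 8.88 in PMEF, 5.98, 6.0 and 6.02 in ES, and 6.76, 7.29 and 7.54 in eWAT. It rose in PMEF against 3T3-L1 by 4.13 ± 0.15 (adjusted p = 4.56e-11). Hacd2, another dehydratase, fell in PMEF by 1.09 ± 0.09 (adjusted p = 1.41e-07) and in ES by 0.79 ± 0.09 (adjusted p = 5.58e-06). The ketoacyl reductase Hsd17b12 rose in ES against 3T3-L1 by 0.68 ± 0.07 (adjusted p = 1.54e-06) and in PMEF by 0.27 ± 0.07 (adjusted p = 0.00314), the latter being 0.05 with median centring (adjusted p = 0.520).

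Among genes of electron supply, the reductase Cyb5r1 differed most. Of 7 measured, 1 fell in PMEF against 3T3-L1, 2 fell in ES against 3T3-L1, and 1 rose and 1 fell in ES against PMEF, where 50.1%, 43.4% and 42.6% of all genes passed in either direction, with medians of -0.05, -0.05 and 0.10. These counts depend on the setting, since the number passing ranged from 1 to 5, 2 to 5 and 2 to 4 over the alternatives, the 5 being falls under median centring. Cyb5r1, a cytochrome b5 reductase family member, read 10.41, 10.39 and 10.33 in 3T3-L1, 8.10, 8.0 and 8.0 in PMEF, 9.44, 9.44 and 9.39 in ES, and 7.24, 6.97 and 7.01 in eWAT. It fell by 2.35 ± 0.08 in PMEF (adjusted p = 1.98e-11) and by 0.95 ± 0.08 in ES (adjusted p = 2.93e-07). Cyb5r3, the main reductase, fell in ES by 1.10 ± 0.08 against 3T3-L1 (adjusted p = 8.40e-08) and by 1.25 ± 0.08 against PMEF (adjusted p = 3.78e-08). Cyb5a, the electron carrier itself, differed by -0.05, -0.05 and 0.00 between cultures, with adjusted p of 0.656, 0.652 and 0.973.

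Malonyl-CoA, the donor of every elongation step, is made from citrate by Acly and Acaca. Of 9 genes of its supply and breakdown and of fatty acid synthesis, 6 rose and 2 fell in PMEF against 3T3-L1. In ES, 5 rose and 2 fell against 3T3-L1, and 2 rose and 2 fell against PMEF. The medians were 0.58, 0.44 and 0.06. The 9 include Mlycd, malonyl-CoA decarboxylase, which breaks malonyl-CoA down. It fell in PMEF and ES against 3T3-L1, rose in ES against PMEF and was called higher in 3T3-L1 than in eWAT. Against 3T3-L1, 22.3% of all genes rose and 27.8% fell in PMEF and 20.4% rose and 23.0% fell in ES. In ES against PMEF, 23.6% of all genes rose and 19.0% fell. Acly rose against 3T3-L1 by 1.06 ± 0.09 in PMEF (adjusted p = 2.53e-07) and by 1.01 ± 0.09 in ES (adjusted p = 6.46e-07). Fasn, fatty acid synthase, rose by 0.58 ± 0.07 (adjusted p = 1.36e-05) and 0.71 ± 0.07 (adjusted p = 2.86e-06). Thrsp, a lipogenic protein that thyroid hormone induces, rose in PMEF by 1.65 ± 0.11 (adjusted p = 1.75e-08) and fell in ES against PMEF by 1.54 ± 0.11 (adjusted p = 8.62e-08). Against eWAT, 8 of the 9 fell in both 3T3-L1 and ES and 9 did in PMEF, where 22.5% (3T3-L1), 20.9% (ES) and 21.6% (PMEF) of all genes were lower, with medians of -1.79, -1.19 and -1.01. Elovl3, Elovl1 and Fads2 stood above tissue in the same arrays.

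Among 15 measured regulators of chain synthesis, 5 rose and 4 fell in PMEF against 3T3-L1. In ES, 6 rose and 4 fell against 3T3-L1, and 7 rose and 4 fell against PMEF. The medians were 0.09, 0.08 and 0.18. Of all genes, 22.3% rose and 27.8% fell in the first comparison, 20.4% and 23.0% in the second and 23.6% and 19.0% in the third. The balance against 3T3-L1 depended on the scale. With median centring 3 rose and 6 fell in PMEF and 5 rose and 7 fell in ES. With reference centring 8 rose and 3 fell in PMEF and 8 rose and 4 fell in ES. Over all genes too, median centring gave more falls and reference centring fewer. Srebf1, the sterol-element factor that drives lipogenic genes, read 7.67, 7.69 and 7.77 in 3T3-L1, 9.24, 9.31 and 9.35 in PMEF, 10.17, 10.20 and 10.28 in ES, and 9.91, 9.79 and 9.72 in eWAT. It rose by 1.59 ± 0.07 in PMEF (adjusted p = 4.59e-10) and by 2.51 ± 0.07 in ES (adjusted p = 1.14e-11) against 3T3-L1. Among textbook targets of this family, Fasn had means of 11.46, 12.04 and 12.17 in 3T3-L1, PMEF and ES. Those of Acaca were 10.31, 11.04 and 11.11, and those of Me1 11.01, 11.57 and 11.74. Each was lowest in 3T3-L1, with PMEF and ES overlapping. Other lipogenic genes ran otherwise. Elovl6 was lowest in ES, at 8.19 to 8.36 against 9.19 to 9.34 in 3T3-L1. Among the cultures Thrsp was highest in PMEF, at 11.15 to 11.35, with 3T3-L1 and ES overlapping. Fads2 was highest in PMEF and Scd2 in 3T3-L1, and the part of Srebf1 in any of these levels was not tested. Ppara, a nuclear receptor of fatty acid oxidation, rose by 1.86 ± 0.17 (adjusted p = 4.56e-07) and 3.28 ± 0.17 (adjusted p = 2.93e-09) in PMEF and ES. Mlxipl, the glucose-sensing factor ChREBP, rose by 0.90 ± 0.08 (adjusted p = 5.23e-07) and 1.63 ± 0.08 (adjusted p = 2.60e-09). The liver X receptor Nr1h3 fell in both, from 9.62 to 9.68 in 3T3-L1 to 9.03 to 9.18 in PMEF and 8.95 to 9.18 in ES. Pparg read 10.55 to 10.64 in 3T3-L1, 10.14 to 10.41 in PMEF and 11.02 to 11.13 in ES. Ppard read 8.80 to 8.83, 8.18 to 8.23 and 8.24 to 8.33 in the same order. For Elovl3, which PPAR and liver X receptors are known to control in mice, no difference between these cultures passed the test. The part of these regulators in the Elovl3 values was not tested.

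Sphingolipid synthesis uses the saturated very long chains that ELOVL1 and ELOVL3 make. Of 13 measured genes, 1 rose and 8 fell in PMEF against 3T3-L1, 3 rose and 8 fell in ES against 3T3-L1, and 5 rose and 2 fell in ES against PMEF, with medians of -0.39, -0.39 and 0.03. Among all genes 22.3% rose and 27.8% fell in the first comparison, 20.4% and 23.0% in the second and 23.6% and 19.0% in the third. With median centring 1 rose and 10 fell in PMEF and 3 rose and 9 fell in ES against 3T3-L1, and with reference centring 2 rose and 7 fell and 3 rose and 6 fell. Sptlc3 rose against 3T3-L1 by 0.75 ± 0.11 in PMEF (adjusted p = 4.04e-05) and by 1.13 ± 0.11 in ES (adjusted p = 1.33e-06). The ceramide synthase Cers6 fell by 0.77 ± 0.11 (adjusted p = 6.06e-05) and 1.01 ± 0.11 (adjusted p = 6.71e-06) in the same comparisons. Fa2h, which hydroxylates ceramide acyl chains, rose in ES against PMEF by 1.42 ± 0.13 (adjusted p = 1.07e-06). Over the 10 pathway lists together, 108 of 116 genes were measured, and 62.0%, 63.0% and 63.0% passed the test in PMEF against 3T3-L1, ES against 3T3-L1 and ES against PMEF, beside 50.1%, 43.4% and 42.6% of all genes. The lists were chosen with earlier results known, so nothing is read from these shares.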

How the data were processed

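Log2 intensities of 35556 probe sets per array were used as deposited. The authors had processed them before deposit, and the normalization method is not given in the sources used here. Per the labels' protocols, RNA was extracted with TRIzol and 300 ng was labelled with a whole-transcript kit. The array annotation gave 1 symbol for 21789 probe sets, several for 1621 and none for 12146. Only the first kind was used, with the brightest probe set by mean for the 999 genes that had several. All 12 arrays entered 1 linear model with a mean per group, fitted in limma 3.58.1 under R 4.3.3 (8 residual and 4.88 prior degrees of freedom). Genes passed the test at an adjusted p under 0.05 (Benjamini-Hochberg over 19938 genes), and only then is a gene said to have risen or fallen. Standard errors and 95% intervals are moderated ones. The fit was tested on simulated data. The number of arrays limits the precision, and no detection calls or filter on dim genes were used.

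The 9 genes, the pathway and marker lists and the tests were chosen with earlier results of these data known. Besides the 9, the text names genes from these lists and, for Elovl3, Fads2 and Scd2, the 5 genes of most like pattern, leaving out clone names and gene models. Labels give replicate numbers in each group. Deviations of same-numbered arrays from their group means correlated at -0.137 to 0.108 (median -0.007), so the numbers were not taken as pairs. Alternatives were quantile normalization, centring on medians or on reference genes, leaving out dim genes, the mean of probe sets, array weights, a fit to the compared groups alone, a trended and robust variance, a block for the replicate number, and leaving out each array. With 3 arrays against 3 an exact permutation test cannot go below p = 0.1, so none was used. Promoters and gene neighbours are from RefSeq tables.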

Additional observations from a re-analysis of the deposited data

How the results depend on the processing

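Over the alternatives, 546 of 567 values of the 9 genes between cultures kept their side of the threshold, 16 lost significance and 5 gained it. No difference that passed changed direction, but differences that did not pass could. For ES minus 3T3-L1, Elovl3 ranged from -0.23 to 0.14. Against eWAT 535 of 567 differences moved by less than the replicate spread. The number of the 9 genes called was 5, 6 and 4 in PMEF against 3T3-L1, ES against 3T3-L1 and ES against PMEF, and leaving out single arrays gave 5 to 5, 6 to 6 and 3 to 5. Genes called ranged from 9184 to 10306, 7758 to 9005 and 7455 to 8852 in these comparisons when an array was left out, and from 9922 to 10767, 8264 to 9393 and 8952 to 10098 for 3T3-L1, PMEF and ES against eWAT. No total of called genes, both directions together, moved by more than 1.5 times over the table or over the 9 under any of these alternatives, though 24 of 1260 counts over the pathway lists did. Counts in 1 direction moved more. For example, lower calls went from 5535 to 9175 in PMEF and from 4580 to 9410 in ES against 3T3-L1 with median centring, and from 4482 to 9403 in 3T3-L1 against eWAT with reference centring. Falls among the 9 went from 1 to 3 in PMEF and from 3 to 5 in ES against 3T3-L1 with median centring, and to 1 in ES with reference centring. Outside the 9, single values were followed for the other elongases and desaturases. From each pathway list and comparison, the genes with the largest called rises and falls were added. Of these values, 3242 of 3344 between cultures and 3251 of 3339 against eWAT kept their side of the threshold. Genes picked for a large called difference are less likely to lose it, so these shares do not describe the whole lists. Among the values counted, no difference that changed direction passed the test both as deposited and under the alternative. Median centring turned Scd1 in ES minus 3T3-L1 from 0.03 to -0.18 (adjusted p = 0.0261). It also turned Scd1 in 3T3-L1 minus eWAT from -0.17, which had passed, to 0.04 (adjusted p = 0.573). Reference centring turned Elovl2 in 3T3-L1 minus eWAT from 0.04 to -0.22 (adjusted p = 0.0244). In the same comparison it turned Scd4 from 0.23, which had passed, to -0.04 (adjusted p = 0.683). The cause was not tested. With the replicate number as a block, 9832, 8435 and 8287 genes were called between cultures and 10519, 9009 and 9739 against eWAT, and 5, 6 and 4 of the 9 genes. Signal limits Elovl4 and Elovl7 in 3T3-L1 and eWAT, Elovl3 in eWAT, and Elovl2 and Scd4 on all arrays, since these values lie near the dim end.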

Other observations

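Peroxisomes shorten very long chains. Of 11 measured genes for this, 3 rose and 5 fell in PMEF against 3T3-L1. In ES, 4 rose and 5 fell against 3T3-L1, and 4 rose and 3 fell against PMEF. The medians were -0.08, 0.05 and 0.12. Of all genes, 22.3% rose and 27.8% fell in the first comparison, 20.4% and 23.0% in the second and 23.6% and 19.0% in the third. Abcd2, a peroxisomal importer of very long acyl-CoA, read 7.79, 7.80 and 7.65 in 3T3-L1, 10.36, 10.40 and 10.42 in PMEF, 10.48, 10.47 and 10.52 in ES, and 11.61, 11.35 and 11.34 in eWAT. It rose by 2.65 ± 0.08 in PMEF (adjusted p = 9.11e-12) and 2.75 ± 0.08 in ES (adjusted p = 1.44e-11). Ehhadh, the bifunctional enzyme of peroxisomal oxidation, rose by 2.74 ± 0.13 (adjusted p = 1.01e-09) and 2.31 ± 0.13 (adjusted p = 1.03e-08). The thioesterase Acot8 fell by 0.86 ± 0.08 (adjusted p = 4.37e-07) and 0.74 ± 0.08 (adjusted p = 3.20e-06).

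Polyunsaturated chains made by the Fads enzymes and Elovl5 are stored in phospholipids and turned into eicosanoids. Of 12 remodelling genes, 4 rose and 3 fell in PMEF against 3T3-L1. In ES, 5 rose and 2 fell against 3T3-L1, and 6 rose and 3 fell against PMEF. The medians were -0.01, -0.04 and 0.07. Of all genes, 22.3% rose and 27.8% fell in the first comparison, 20.4% and 23.0% in the second and 23.6% and 19.0% in the third. Against 3T3-L1, median centring gave 3 rises and 6 falls in PMEF and 3 rises and 7 falls in ES. Reference centring gave 5 rises and 3 falls in PMEF and 5 rises and 1 fall in ES. Pla2g4a, the phospholipase that releases arachidonic acid, fell in ES by 0.74 ± 0.09 against 3T3-L1 (adjusted p = 1.08e-05) and by 0.57 ± 0.09 against PMEF (adjusted p = 0.000130). Of 15 eicosanoid genes, 5 rose and 3 fell, 3 rose and 4 fell, and 4 rose and 6 fell in the same order of comparisons. Their medians were 0.13, 0.03 and -0.33. Against 3T3-L1, median centring gave 5 rises and 4 falls in PMEF and 2 rises and 5 falls in ES. Reference centring gave 7 rises and 3 falls in PMEF and 4 rises and 2 falls in ES. Ptgis, prostacyclin synthase, rose in PMEF against 3T3-L1 by 1.26 ± 0.07 (adjusted p = 5.48e-09), and Ptgs2, the inducible cyclooxygenase, fell by 0.95 ± 0.14 (adjusted p = 7.72e-05). Alox5ap, the lipoxygenase-activating protein of leukocytes, read 8.44, 9.19 and 9.33 in eWAT and 5.09 to 5.69 in the cultures. Of 11 acyl-CoA synthetases, 3 rose and 4 fell, 3 rose and 3 fell, and 3 rose and 4 fell, with medians of 0.10, 0.14 and 0.04. Against 3T3-L1, median centring gave 3 rises and 5 falls in PMEF and 2 rises and 3 falls in ES. Reference centring gave 5 rises and 3 falls in PMEF and 6 rises and 2 falls in ES. Acsl4, which prefers arachidonic acid, fell against 3T3-L1 by 2.10 ± 0.08 in PMEF (adjusted p = 5.58e-11) and by 1.5 ± 0.08 in ES (adjusted p = 2.92e-09).

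Hepatocyte markers averaged 5.01 to 5.89 on the 12 arrays over the 7 measured, and undifferentiated ES cell markers 4.60 to 5.08 over 6. Among the hepatocyte markers, Alb read 10.81, 9.93 and 9.87 in eWAT. It read 4.87 to 5.17 in 3T3-L1, 4.98 to 5.11 in PMEF and 6.02 to 6.54 in ES. Against eWAT, Apoa2 rose in PMEF, and Ttr and Fgb rose in ES.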
